A study of Mus musculus with 2 samples.

Results

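Hprt and 9 other genes of purine nucleotide synthesis were followed in messenger RNA of mouse embryonic stem cells. The 10 genes form a fixed list of symbols, and each was found by its symbol in GENCODE M21 among the 47643 Ensembl gene IDs of the count files. They were chosen by the measured level of Hprt, whose counts in these same libraries were low, so that level and its distance from the other genes are a description, and no test is given for them. The cells were of the E14 line, of the 129/Ola background and derived from blastocysts, and carried a double knockout of Ago1 and Ago2, which encode Argonaute proteins of microRNA-guided repression. Both libraries, replicate 1 and replicate 2, were of this genotype. They were grown under the same conditions, in 15% serum with 100 U/mL LIF and a coating of 0.2% gelatine. Unmodified cells were not analysed here, and the values therefore describe double-knockout cells without measuring what the knockout did. Separate cultures or clones are not stated in the labels, so every SD and p-value covers only what varied between these samples, possibly for technical reasons.

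Cells obtain purine nucleotides by de novo synthesis, which builds the purine ring on phosphoribosyl pyrophosphate (PRPP), and by salvage, which attaches a ready-made base to PRPP. Hprt salvages hypoxanthine and guanine, and Aprt salvages adenine. Ppat, Gart, Pfas, Paics, Adsl and Atic carry the de novo route to inosine monophosphate (IMP), and Impdh1 and Impdh2 encode isozymes that commit IMP to guanine nucleotides. Embryonic stem cells without Hprt survive in thioguanine and die in HAT medium, where de novo synthesis is blocked, and E14 sublines exist that were selected for loss of a working Hprt gene. Which subline was used is not stated in the labels, and gene counts show no genomic sequence.

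Promoter sequences of 250 bases before to 50 bases after the annotated start, from RefSeq on GRCm38.p6, were found for 9 of the 10 genes. Pfas was not matched. The Hprt promoter is printed because that gene stood apart in level. In the reference build it lies at chrX:52987828-52988127 on the plus strand, and its presence in these cells was not tested. Capitals mark GGGCGG or its complement CCGCCC, the GC box, which was found in 3 places there.
Hprt: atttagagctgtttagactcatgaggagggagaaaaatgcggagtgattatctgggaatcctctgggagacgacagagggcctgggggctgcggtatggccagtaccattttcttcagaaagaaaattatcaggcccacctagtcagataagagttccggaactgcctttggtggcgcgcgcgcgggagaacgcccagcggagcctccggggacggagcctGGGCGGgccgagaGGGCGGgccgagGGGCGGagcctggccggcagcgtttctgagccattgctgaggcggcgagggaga
The GC box was present in all 9 genes with a promoter, and in 38.2% of the 27025 genes of the promoter table. That table was not restricted to genes expressed in these cells, so the difference is not read as a trait of purine genes. The letters CACGTG, the E-box bound by Myc and related factors, read the same on both strands and were found in 3 of the 9 genes, Paics, Atic and Impdh2. Of all genes in the table, 8.09% held it, and for the same reason this difference is not read as a trait of purine genes. The promoters with the E-box are printed with CACGTG in capitals. That of Paics spans chr5:76951052-76951351, that of Atic chr1:71556906-71557205 and that of Impdh2 chr9:108560186-108560485, all on the plus strand.
Paics: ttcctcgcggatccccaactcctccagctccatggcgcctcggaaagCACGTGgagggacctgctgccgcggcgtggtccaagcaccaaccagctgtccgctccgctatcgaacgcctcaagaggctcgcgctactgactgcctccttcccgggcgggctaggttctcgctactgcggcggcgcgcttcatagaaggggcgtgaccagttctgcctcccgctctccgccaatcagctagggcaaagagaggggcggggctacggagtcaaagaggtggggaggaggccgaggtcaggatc
Atic: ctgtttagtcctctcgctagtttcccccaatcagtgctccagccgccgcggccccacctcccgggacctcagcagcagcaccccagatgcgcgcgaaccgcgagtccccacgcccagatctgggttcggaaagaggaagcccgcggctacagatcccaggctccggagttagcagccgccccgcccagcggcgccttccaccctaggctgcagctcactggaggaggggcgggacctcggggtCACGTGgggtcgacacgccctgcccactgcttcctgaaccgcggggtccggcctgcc
Impdh2: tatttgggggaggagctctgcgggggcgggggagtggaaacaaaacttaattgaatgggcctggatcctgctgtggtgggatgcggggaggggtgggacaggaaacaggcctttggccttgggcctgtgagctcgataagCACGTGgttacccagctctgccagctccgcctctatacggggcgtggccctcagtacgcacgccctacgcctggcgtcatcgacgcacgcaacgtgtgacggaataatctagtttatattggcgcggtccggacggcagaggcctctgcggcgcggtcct
The E-box began 203 bases before the RefSeq start of Paics, 7 bases before that of Atic and 110 bases before that of Impdh2. Gene spans given below are from GENCODE M21, whose starts can differ from those of RefSeq. The M21 span of Impdh2 begins at 108560286, before its E-box, and that of Atic at 71557150, within its E-box. The Hprt window ends at 52988127, before the M21 start of Hprt at 52988137. In none of these printed promoters did the E-box share bases with a GC box. Impdh1 has 2 annotated starts in the table, and overlapping GC boxes were each counted. GC boxes were searched after the levels had been seen. A match describes the letters of the window and does not show that a factor binds there.

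Levels are given as counts, as CPM (a gene's share of all gene counts of its library, scaled to a common total) and as TPM, which also divides by gene length. Levels of different genes are set side by side in TPM; a threshold of 1 CPM, the neighbours of Hprt and shares of a pair's counts do not take length into account. Library totals were 34798975 counts in replicate 1 and 29789560 in replicate 2, so that 1 count was worth 0.0287 and 0.0336 CPM. TPM used the length of the union of all annotated exons, and the length of the longest coding transcript is given as an alternative for some genes and lists. Of the 10 genes 9 reached 1 CPM in both libraries, beside 58% of all protein-coding genes; the genes were chosen with these levels known, so nothing is read from that count. The embryonic stem cell markers were high, with 5 of 5 at 1 CPM or more in both libraries, a median of 661 TPM, and Pou5f1, which encodes Oct4, at 1687 ± 85.6 TPM. Of 8 fibroblast markers, which feeder cells would bring, Thy1 (22.0 ± 1.11 TPM) and Col1a1 (1.07 ± 0.298 TPM) reached 1 CPM, Col3a1, Lum and Postn had no count, and Pdgfra had 28 counts in replicate 1 and 19 in replicate 2. Col1a2 had 0 and 1 counts and Dcn 2 and 0 in replicates 1 and 2. Summed over the 8 markers, the level was 27.6 and 26.8 CPM in replicates 1 and 2, of which Thy1 alone held 24.7 and 23.1 CPM. The part of feeder cells in the Hprt counts was not tested.

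Among the salvage enzymes, Hprt was low and Aprt was abundant. Hprt (ENSMUSG00000025630; GRCm38 chromosome X, 52988137 to 53021659, plus strand) had 25 counts in replicate 1 and 18 in replicate 2. These equal 0.718 CPM (95% exact Poisson interval 0.465 to 1.06) and 0.604 CPM (0.358 to 0.955). Both libraries were thus low and their intervals overlapped, and both counts lay above the detection floor of 3. Intervals and floors cover counting error only. In TPM, Hprt stood at 1.54 in replicate 1 and 1.29 in replicate 2, a mean of 1.42 ± 0.177 (SD, n = 2). Of the 21620 protein-coding genes in the files, 44.5 and 44.2% had a lower TPM in replicates 1 and 2. No exon of another gene overlaps Hprt, and 0% of the 50-base stretches of its transcript recur in other annotated transcripts.

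Aprt (ENSMUSG00000006589; chromosome 8, 122574635 to 122576909, minus strand) drew 3413 reads in replicate 1 and 2475 in replicate 2, equal to 168 and 142 TPM. It stood at 155 ± 18.6 TPM (SD, n = 2), and 96.9 and 96.2% of protein-coding genes were lower. Aprt exceeded Hprt 109-fold in replicate 1 (95% exact interval 73.7 to 169) and 110-fold in replicate 2 (69.3 to 185), counted per base of exon; per base of the longest coding transcript the ratios were 207 and 209. Both libraries therefore gave nearly the same ratio. Hprt made up 0.727% of the counts of this pair in replicate 1 (25 of 3438; exact 95% bounds 0.471 and 1.07%, by Clopper-Pearson) and 0.722% in replicate 2 (18 of 2493; bounds 0.428 and 1.14%).

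**Figure D1:**
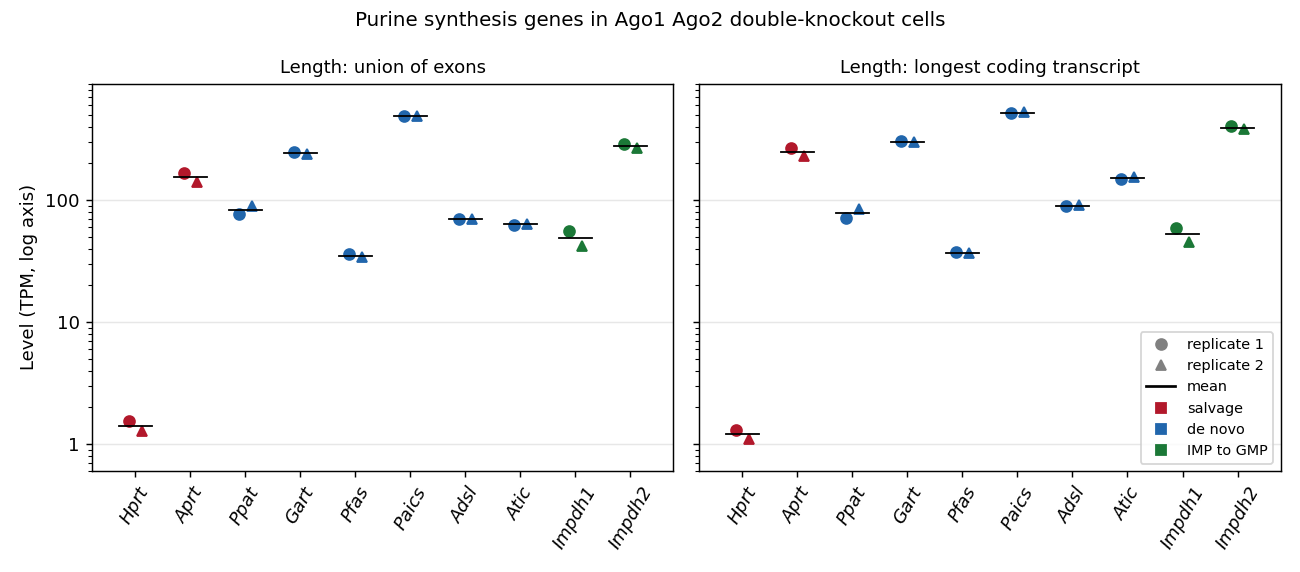
Level in TPM (log axis) of the 10 genes in each library, with replicate 1 as circles, replicate 2 as triangles and the mean of both as a bar; the left panel divides by the union of exons and the right panel by the longest coding transcript. Hprt lies near 1 TPM in both panels, and the 9 others lie between 34.3 TPM (Pfas in replicate 2) and 526 TPM (Paics in replicate 2, right panel).

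All 6 de novo enzymes were well above Hprt in each library. Paics (ENSMUSG00000029247; chromosome 5, 76951307 to 76967509, plus strand), a bifunctional enzyme of carboxylation and SAICAR synthesis, had 19233 and 16524 counts. It was the most abundant of the 10 genes with 487 TPM in replicate 1 and 486 TPM in replicate 2, and the libraries were almost the same. Of the 50-base stretches of its transcript, 12.1% recur in Ppat or in processed pseudogenes. Gart (ENSMUSG00000022962; chromosome 16, 91621186 to 91646952, minus strand), the trifunctional enzyme with glycinamide ribonucleotide synthetase, formyltransferase and aminoimidazole ribonucleotide synthetase activity, had 15950 and 13236 counts, or 246 and 238 TPM. Of its exon length, 19.7% overlaps the antisense gene Gm15964, which had 11 and 4 counts.

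Ppat (ENSMUSG00000029246; chromosome 5, 76913249 to 76951578, minus strand) encodes the amidophosphoribosyltransferase of the first committed step. It had 4280 and 4263 counts, or 76.9 TPM in replicate 1 and 89.0 TPM in replicate 2, so replicate 2 was the higher. Ppat and Paics are neighbours that point away from each other, and 272 bases of exon overlap at their 5′ ends on opposite strands, 6.15% of the exon length of Ppat and 8.67% of that of Paics. Paics exceeded Ppat 6.33-fold in replicate 1 (95% exact interval 6.12 to 6.54) and 5.46-fold in replicate 2 (5.28 to 5.65), counted per base of exon. These intervals did not overlap, so the ratio differed between the libraries by more than counting error. The counting tool's strand setting is not stated in the sources used here, so reads in the shared bases may have gone to either gene.

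Adsl (ENSMUSG00000022407; chromosome 15, 80948490 to 80970946, plus strand), the adenylosuccinate lyase that acts in the de novo route and again between IMP and AMP, had 4943 and 4250 counts. It stood at 69.7 TPM in each library. Atic (ENSMUSG00000026192; chromosome 1, 71557150 to 71579631, plus strand), which carries the last formyl transfer and closes the ring, had 6289 and 5540 counts, or 62.6 and 64.1 TPM. Pfas (ENSMUSG00000020899; chromosome 11, 68985697 to 69008460, minus strand), the FGAM synthase, was the lowest of the route with 3583 and 2945 counts, or 35.9 and 34.3 TPM. Even so it exceeded Hprt 23.3-fold in replicate 1 (95% exact interval 15.7 to 36.0) and 26.6-fold in replicate 2 (16.8 to 44.9) per base of exon.

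The enzymes of 1 linear route thus differed in transcript level among themselves. The highest, Paics, exceeded the lowest, Pfas, 13.9-fold in mean TPM. Their median was 76.3 TPM, which is 53.9 times the level of Hprt, against a median of 17.3 TPM over the 12530 protein-coding genes at 1 CPM or more in both libraries. With the longest coding transcript as length, the de novo median was 120 TPM and 100.2 times that of Hprt. The 6 de novo enzymes summed to 1560 and 1570 CPM in replicates 1 and 2.

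The IMP dehydrogenase genes were unequal, with Impdh2, the isozyme usually dominant in dividing cells, above Impdh1. Impdh2 (ENSMUSG00000062867; chromosome 9, 108560286 to 108565584, plus strand) had 11159 and 8929 counts, or 288 and 268 TPM in replicates 1 and 2. Impdh1 (ENSMUSG00000003500; chromosome 6, 29200434 to 29216364, minus strand) drew 2308 and 1499 reads, equal to 55.7 and 42.0 TPM. Without division by length, Impdh2 took 82.9% of the counts of this pair in replicate 1 (Clopper-Pearson bounds 82.2 and 83.5%) and 85.6% in replicate 2 (bounds 84.9 and 86.3%). Of the 50-base stretches of the Impdh2 transcript, 73.9% recur in the processed pseudogene Impdh2-ps, which itself had 167 and 117 counts. How reads with several matches were counted is not stated in the sources used here, so the Impdh2 level is uncertain and may be too low.

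In order of mean TPM the genes ran Paics, Impdh2, Gart, Aprt, Ppat, Adsl, Atic, Impdh1, Pfas and Hprt. In each of the 9 neighbouring pairs the libraries' ranges did not overlap, although Adsl and Atic differed only 1.10-fold and Impdh2 and Gart 1.15-fold. The gap between Pfas and Hprt was 24.8-fold. The middle of the order depends on the length used. The union of exons of Atic measures 7985 bases, against 2845 bases for its longest coding transcript, and on the transcript length Atic stood at 151 ± 4.25 TPM and at the fifth place, above Adsl (89.7 ± 0.990 TPM) and Ppat (78.2 ± 8.98 TPM). Aprt likewise stood at 249 ± 27.2 TPM on that length, Gart at 300.1 ± 4.21 TPM and Impdh2 at 390.4 ± 15.5 TPM. Hprt was at the tenth place and Paics at the first with all 3 lengths tried.

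The genes around Hprt were read next. The annotation holds 34 genes within 500 kb of Hprt, 9 of them protein-coding with Hprt included, and 5 of the 8 others reached 1 CPM in both libraries. Phf6, a chromatin-associated gene on the same strand that ends 31.2 kb before Hprt, had 900 and 843 counts, or 27.1 ± 1.72 CPM. Ccdc160 (19.9 ± 2.44 CPM) and the glypican gene Gpc3 (44.5 ± 1.98 CPM) lie farther out on that side. On the other side, Plac1, a placental gene 48.3 kb after Hprt, had 1 count in each library. Beyond it Fam122b stood at 77.4 ± 4.18 CPM and Mospd1 at 8.21 ± 1.07 CPM, whereas Fam122c (4 and 6 counts) and Etd (0 and 1 counts) were near or below the floor. The nearest protein-coding neighbour before Hprt therefore reached 1 CPM and the nearest after it did not. Of the 25 other annotated genes in the window, 15 had a count in at least 1 library and 3 reached 1 CPM in both. For comparison, 423 of 946 protein-coding genes on chromosome X (44.7%) reached 1 CPM in both libraries.

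**Figure D2:**
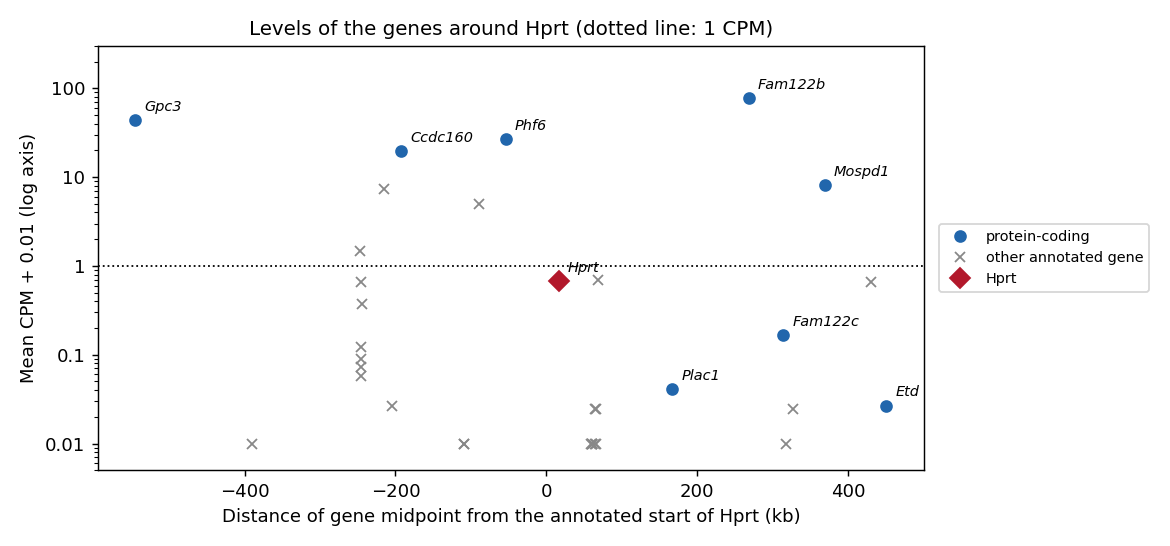
Mean CPM + 0.01 (log axis) of every annotated gene within 500 kb of Hprt against the distance of its midpoint from the start of Hprt in kb; circles are protein-coding genes, crosses other genes, the diamond Hprt and the dotted line 1 CPM. Phf6 and Fam122b lie above the line on either side, and Plac1 lies below it.

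The supply of PRPP, the sugar phosphate that both routes use, was present at the transcript level. Of 6 listed genes 5 reached 1 CPM in both libraries, with a median of 67.9 TPM. The synthetase gene Prps1 (158 ± 12.4 TPM), which like Hprt lies on chromosome X, and the associated protein gene Prpsap2 (92.0 ± 3.67 TPM) led the list. Prps1l3 stood at 79.6 ± 3.42 TPM, with 19.8% of its sequence shared with other genes, and 34.0% of the sequence of Prpsap2 is shared. Prps2, also on chromosome X, had 1541 and 1222 counts (30.4 ± 1.74 TPM), and the testis gene Prps1l1 had no count.

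Among 7 matched salvage genes, Hprt was the exception and the other 6 reached 1 CPM. After Aprt, the phosphorylase gene Mtap, which recovers adenine from methylthioadenosine (48.4 ± 0.443 TPM), and the deoxycytidine kinase gene Dck (35.2 ± 2.05 TPM) were highest. The adenosine kinase gene Adk stood at 18.8 ± 0.128 TPM, or 74.6 TPM per base of its longest coding transcript. Pnp2, a purine nucleoside phosphorylase gene, had 183 and 171 counts, with 33.1% of its sequence shared. The list median was 18.8 TPM, or 36.7 TPM with the longest coding transcript as length. Pnp, another purine nucleoside phosphorylase gene, and Prtfdc1 were not matched by symbol and are not analysed here, so the count and the median leave both out. Reads of Pnp counted under an ID that M21 names otherwise would be missed.

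Downstream of IMP, 6 of 6 genes reached 1 CPM with a median of 59.3 TPM. Beside Impdh2, the adenylosuccinate synthase gene Adss led with 119 ± 7.00 TPM. The GMP synthase gene Gmps stood at 36.4 ± 1.62 TPM, and Adssl1, the muscle isozyme of Adss, was lowest with 139 and 87 counts (4.56 ± 1.02 TPM). Both branches from IMP were thus represented by at least 1 abundant gene.

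Interconversion and breakdown genes had a lower median than the purine lists above, 8.93 TPM, beside 3.07 TPM over all 21620 protein-coding genes. Of the 15 genes of this list, 10 reached 1 CPM (66.7%), beside 58% of all protein-coding genes. Itpa, which removes inosine triphosphate (60.7 ± 3.63 TPM, 30.2% of its sequence shared), the AMP deaminase gene Ampd2 (42.7 ± 0.632 TPM) and the nucleotidase gene Nt5c (28.9 ± 0.742 TPM) led it. Enzymes that form xanthine and uric acid or break uric acid down had few counts, with 6 and 3 counts for xanthine dehydrogenase (Xdh), 11 and 2 for guanine deaminase (Gda) and 8 and 7 for urate oxidase (Uox). The other 2 genes below 1 CPM were Ampd1 (17 and 9 counts) and Nt5c1a (2 and 1 counts).

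Kinases and ribonucleotide reduction had 12 of 13 genes at 1 CPM and a median of 63.2 TPM. Nme2 (446 ± 39.7 TPM, 54.5% of its sequence shared) and the reductase gene Rrm2 (317 ± 6.29 TPM) were highest. Ak3 had 834 and 796 counts, and the brain isozyme Ak5 had 2 and 0. Genes listed as transporters of nucleosides and bases had a median of 14.6 TPM, and 7 of 8 passed 1 CPM. The equilibrative carrier Slc29a1 (105 ± 2.77 TPM, or 161 TPM on the longest coding transcript), the concentrative carrier Slc28a1 (91.1 ± 0.852 TPM) and Slc29a3 (39.0 ± 0.704 TPM) led, while Slc28a3 had 53 and 43 counts and Slc28a2 none. Slc43a3, a carrier of purine bases, stood at 7.58 ± 0.709 TPM.

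Pyrimidine genes were also read as lists of de novo synthesis and salvage. The pyrimidine de novo list had 6 of 6 genes at 1 CPM and a median of 71.0 TPM, beside 76.3 TPM for the purine de novo list. Ctps (112 ± 2.12 TPM), Umps (105 ± 5.77 TPM) and the trifunctional Cad (103 ± 7.00 TPM) led it, and Dhodh (1411 and 1147 counts) and Ctps2 (1008 and 834 counts) were lowest. Pyrimidine salvage had 7 of 9 genes at 1 CPM and a median of 7.97 TPM, beside 18.8 TPM for purine salvage. On the longest coding transcript the medians were 16.9 and 36.7 TPM. Upp1 (353 ± 39.1 TPM), Uck2 (119 ± 2.60 TPM) and Tk1 (35.9 ± 6.67 TPM, or 109.7 TPM on the longest coding transcript) were highest, and Cda (12 and 11 counts) and Upp2 (16 and 13 counts) were below 1 CPM. Summed over genes, pyrimidine salvage held 625 and 578 CPM and pyrimidine de novo 742 and 727 CPM in replicates 1 and 2. The purine lists held 278 and 268 CPM for salvage and 1560 and 1570 CPM for de novo. These lists were compared by counts, medians and sums only.

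**Figure D3:**
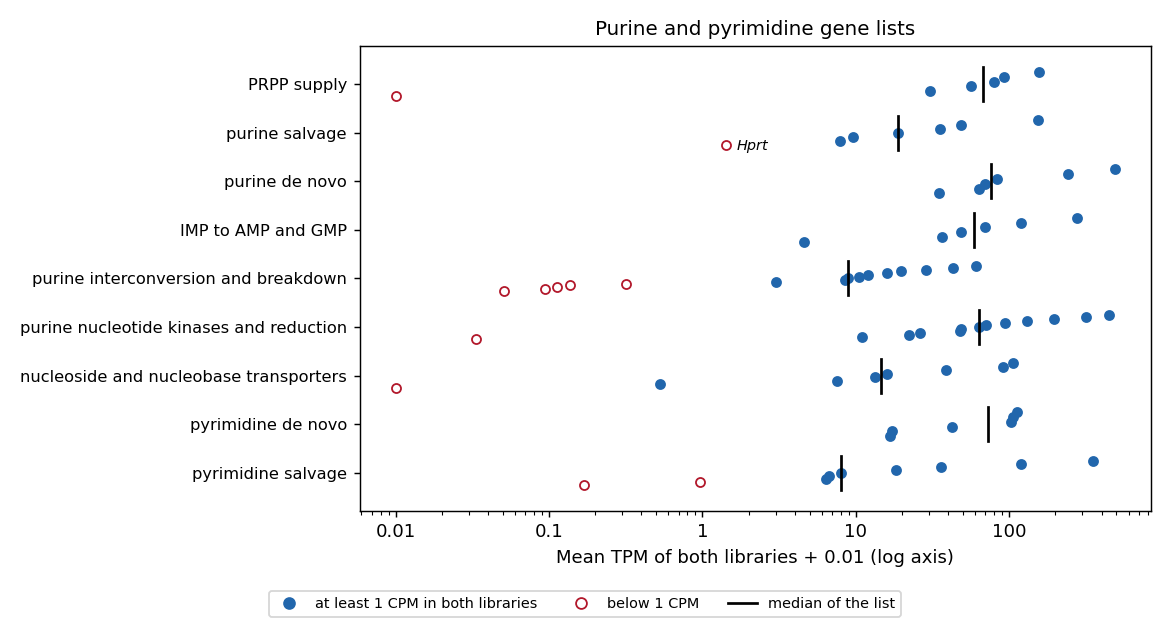
Mean TPM + 0.01 of both libraries (log axis) for each gene of 9 purine and pyrimidine lists; filled points reached 1 CPM in both libraries, open points did not, and the bar is the median of the list. Hprt is the open point of the purine salvage list, where the other 6 genes are filled.

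The difference between the libraries sets the error of these levels. A two-sided exact binomial test set replicate 1 against replicate 2 for each of 19078 genes with at least 10 counts, with Benjamini-Hochberg adjustment over all of them. What it compares is reads of a pair of libraries, not conditions. The test called 24.2% of genes, 13.1% higher and 11.2% lower in replicate 1, so sampling noise alone did not account for the difference and the libraries were kept as 2 samples. Of the 10 genes, 4 were higher and 1 was lower in replicate 1, and 5 did not pass. Among the 8358 genes with at least 1000 counts in total, as all of the 10 but Hprt have, 39.5% were called and 19% were called higher in replicate 1, beside 5 and 4 of these 9 genes. edgeR's exact test, with a dispersion estimated from both libraries, called 0.456% of genes and 0 of the 10 (lowest adjusted p 0.680). That dispersion came from the same difference that was tested, so a gene with a typical difference could hardly be called. The few calls therefore do not show that the libraries agreed.

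Of the 5 genes that passed the exact binomial test, Impdh1 had the largest shift. Its log2 ratio of replicate 1 over replicate 2 was 0.40 ± 0.05 (counting SE; exact binomial test, adjusted p = 1.81e-15). Aprt was higher in replicate 1 by 0.24 ± 0.04 (adjusted p = 5.35e-09, exact binomial test) and Ppat was lower by -0.22 ± 0.03 (adjusted p = 1.45e-10, exact binomial test). Shifts of Impdh2 (0.10 ± 0.02) and Gart (0.05 ± 0.02) were small and passed the exact binomial test too (adjusted p = 1.63e-05 and 0.0271). Over the genes with at least 1000 counts the median absolute log2 ratio was 0.09, and 0.32 was its 95th percentile, which only Impdh1 of the 10 exceeded. Hprt had a log2 ratio of 0.24 ± 0.44 (adjusted p = 0.819, exact binomial test), which its few counts leave undecided. Paics (-0.0031 ± 0.02), Adsl (-0.0042 ± 0.03), Atic (-0.04 ± 0.03) and Pfas (0.06 ± 0.04) did not pass.

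Base composition moved with these ratios. Across genes with at least 100 counts the Spearman rho between GC content and the log2 ratio was 0.29, a description over genes that share libraries. Impdh1 and Aprt have the highest GC content of the 10 (58.9 and 58.5%), and Ppat (44.1%) and Hprt (40.1%) the lowest. The log2 ratio of Hprt, 0.24, was opposite in sign to the trend, but its counting SE was 0.44. With the trend on GC content removed, the log2 ratio was 0.31 for Impdh1, 0.15 for Aprt and -0.16 for Ppat. All 3 still passed the exact binomial test (adjusted p = 2.47e-09, 0.000792 and 5.51e-06). Impdh2 still passed it too (0.067, adjusted p = 0.00765), while Gart no longer did (0.0076, adjusted p = 0.842). In this setting 4 of the 10 genes passed, beside 3977 of the 19078 tested genes. Hprt stood at 0.32 on that scale and did not pass the exact binomial test (adjusted p = 0.763).

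**Figure D4:**
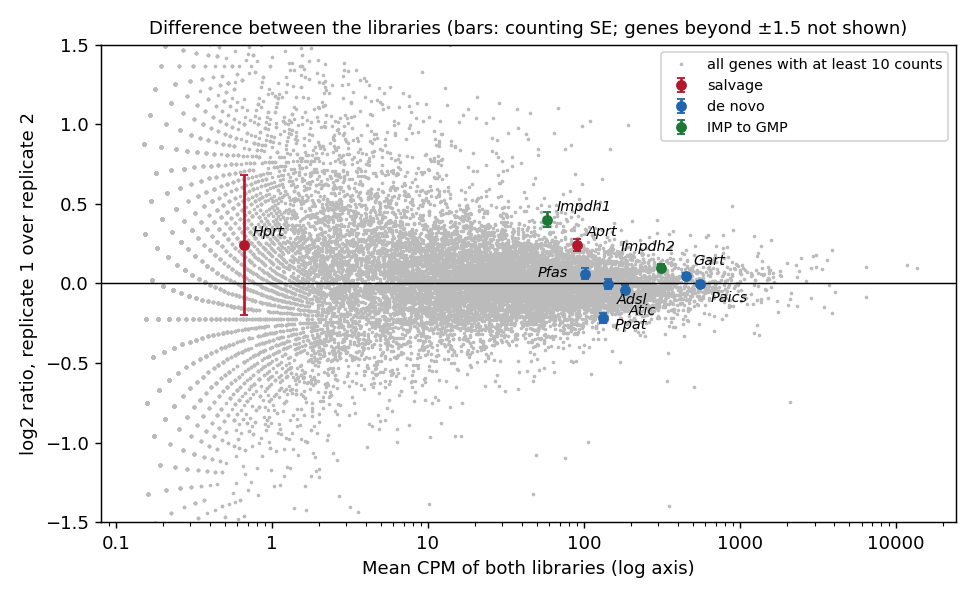
Log2 ratio of replicate 1 over replicate 2 against mean CPM (log axis) for all genes with at least 10 counts (grey) and the 10 genes (coloured by role, bars are the counting SE). Impdh1 and Aprt lie above 0, Ppat lies below it, and Hprt at 0.661 CPM has an SE of 0.44.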

How the data were processed

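Polyadenylated RNA of 2 libraries of 1 genotype was measured. Per the labels' protocols, Trizol-extracted RNA (1 ug of total RNA) went into a reverse-stranded TruSeq protocol. STAR 2.4.2a and the mm10 (GRCm38) build are named in the submitters' processing notes. The deposited files hold raw counts per Ensembl gene; not given in the sources used here are the counting tool, its strand setting, its annotation release and its treatment of reads with several matches. Of the gene IDs, 47224 were named with GENCODE M21; the others held 0.116 and 0.124% of counts in replicates 1 and 2 and stayed in the totals.

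CPM was computed on library totals, and TPM from union exon lengths. The floor of 3 counts corresponds to 0.0862 and 0.101 CPM in replicates 1 and 2. Intervals are 95% exact intervals. The exact binomial test (SciPy 1.17.1) used totals scaled by TMM in edgeR 4.0.16, a pseudocount of 0.5 counts for ratios and a threshold of 0.05. Alternatives used DESeq2 1.42.0 size factors, unscaled totals, other filters, thresholds, lengths and pseudocounts, edgeR's exact test, a lowess trend on GC content of the longest transcript (fraction 0.3; 99.5% of tested genes had a value) and each library alone. The binomial test was tested on data simulated with sampling noise only, where 5 unchanged genes were called. These libraries differed by more than sampling noise, so that outcome does not carry over to them. Sequence sharing is the percentage of 50-base stretches of a gene's longest coding transcript found in transcripts of other genes, on either strand.

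The 10 genes, the 11 lists and the tests were chosen with earlier results of these data known. Named were the 10 genes, of each list the 3 highest in TPM, the 2 lowest in counts and those below 1 CPM where 5 or fewer, and the protein-coding genes within 500 kb of Hprt. Of the cell type markers only a part is named. An item named by the rule is not reported here. Adk, Gmps, Slc43a3, Impdh2-ps and Gm15964 were named for their role after their values were seen.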

Additional observations from a re-analysis of the deposited data

How the results depend on the processing

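The level of Hprt was 0.661 CPM and ranged from 0.604 to 0.718 CPM with 1 library left out; TMM, DESeq2 size factors and a total of protein-coding counts moved it by less than its SD. The order by TPM kept 10 of 10 places with either library alone, 8 with the longest coding transcript and 6 with the coding length. The longest coding transcript moved the TPM of 8 of the 10 genes by more than the SD between libraries, Ppat and Impdh1 excepted, and raised the list medians of purine salvage (36.7 against 18.8 TPM) and pyrimidine salvage (16.9 against 7.97 TPM). With a threshold of 5 CPM or of 1 TPM, 1 fibroblast marker passed in place of 2; the other list counts stayed within 1.5 times of their values at every threshold and with either library alone. At 0.5 CPM or 1 TPM all 10 genes passed, Hprt included. Across the libraries, the exact binomial test called 4624 genes, 2491 of them higher in replicate 1, and 5 of the 10 genes; edgeR's exact test called 87, 65 and 0, so calls higher in replicate 1 were 53.9% of the binomial and 74.7% of the edgeR calls. Removing the GC trend left 3977 calls among the 19078 tested genes and 4 among the 10 genes. It turned the sign of 2 ratios that did not pass in either setting, to 0.021 for Paics and 0.012 for Adsl; the cause was not tested. Other scalings, count filters and pseudocounts changed no call of the 10 genes, with Hprt left untested at a minimum of 100 counts. No comparison of the libraries can leave out a library. No paired analysis was possible because the series holds 1 group. Depth limits Hprt: with 25 and 18 counts its log2 ratio between the libraries has a counting SE of 0.44.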
